A study of Mus musculus with 3 samples.

Results

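The albumin family and other secreted plasma carriers were followed in whole mouse embryos through 7 genes, Afp, Alb, Gc, Trf, Ambp, Ahsg and Tcn2. They were represented by the probe sets that the platform annotation assigns to 1 of these symbols alone, which gave 13 of the 45037 probe sets on the arrays, for 5 of the 7 genes. Afp and Tcn2 had 5 probe sets each, and Alb, Ambp and Ahsg had 1 each. Gc matched no listed probe set and Trf matched 1 that is annotated to several genes, so neither was analysed here.

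Plasma carriers are proteins secreted into the blood, where they hold fatty acids, metals, vitamins and other ligands, some of which dissolve poorly. Before the liver forms, the visceral endoderm of the yolk sac makes most of them for the embryo, and alpha-fetoprotein, the product of Afp, is its best known secreted protein. Afp and Alb arose from a common ancestral gene and lie side by side on mouse chromosome 5, and albumin replaces alpha-fetoprotein as the main serum protein once the liver matures.

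The normal group was 1 array of RNA from 6 pooled C57Bl/6J litter mates, collected as whole embryos of mixed sex at 8.5 days post coitum (dpc). The mutant group was 2 arrays, called biological replicates by the submitters, from 8 and 6 pooled litter mates of mixed sex at the same age. Mutant embryos were Dnmt3l-/+ on a C57Bl/6J background, with a wildtype sire and a dam that was Dnmt3l-/-, and the series title calls them maternal methylation-deficient. Dnmt3l is a cofactor of the DNA methyltransferases that set maternal marks in the oocyte, so the groups differ in the mother's genotype as well as in the embryo's own allele. All values come from pools, so neither single embryos nor single tissues can be read from them.

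Signals are array intensities on a linear scale, and the median signal was 144 for the normal pool, 130 for mutant pool 1 and 140 for mutant pool 2. The probe set of Dnmt3l read 12.2, 183 and 14.3 in that order, and it did not check the labels because the embryos keep a wildtype paternal allele. The 12 yolk sac endoderm markers had a summed signal of 7543 in the normal pool, 61891 in mutant pool 1 and 75464 in mutant pool 2. All 12 were higher in both mutant arrays, against 36.5% of all genes, and had a median log2 ratio of 3.24. All 12 also passed the test described below as higher, against 0.728% of all genes. The list was chosen with earlier results of these data known. The 6 erythroid markers measured had a median log2 ratio of 1.76, the 6 cardiac markers -0.87 and the 6 neural markers -0.99. Of the other cell types, 4 trophoblast markers passed the filter with a median of 1.55, 6 endothelial markers with 0.74 and 4 decidua markers with -0.42. The decidua markers went opposite ways, since Prl8a2, a prolactin-family gene of the decidua, fell from 1376 to 91.2 and 111.4 (log2 ratio -3.41, SE 0.30, limma adjusted p = 0.0212), while Lum, a matrix proteoglycan gene, read 1.57 without passing. The part of decidual tissue in the results below was not tested either. The summed signal of the cardiac list was 27796 in the normal pool, 15622 in mutant pool 1 and 20456 in mutant pool 2. That of the neural list was 8305, 4062 and 5819 in that order. Heart and neural signal on each array does not show which other tissues a pool held, so the whole-embryo label was not tested. Throughout, a larger number of cells of a type and more RNA per cell cannot be told apart in pooled tissue. The part of yolk sac endoderm content in the results below was not tested.

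The promoters of Afp, Alb and Ambp are printed because Afp and Alb form the main contrast and Ambp is a carrier outside the albumin family that read higher in the mutants. The RefSeq promoter table of mouse build GRCm38.p6 held 5 of the 7 genes (Afp, Alb, Gc, Ambp and Ahsg), each as 250 bases before and 50 after the start of the gene. Capitals mark the CCAAT box (CCAAT or its reverse complement ATTGG), a common promoter element. The windows are chr5:90490464-90490763 on the plus strand for Afp, chr5:90460620-90460919 on the plus strand for Alb and chr4:63154123-63154422 on the minus strand for Ambp.
Afp: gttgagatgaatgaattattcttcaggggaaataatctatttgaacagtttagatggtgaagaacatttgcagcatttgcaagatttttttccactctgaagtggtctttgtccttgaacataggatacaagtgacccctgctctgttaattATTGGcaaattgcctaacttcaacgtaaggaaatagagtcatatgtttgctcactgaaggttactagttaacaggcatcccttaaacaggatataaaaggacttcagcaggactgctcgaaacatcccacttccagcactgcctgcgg
Alb: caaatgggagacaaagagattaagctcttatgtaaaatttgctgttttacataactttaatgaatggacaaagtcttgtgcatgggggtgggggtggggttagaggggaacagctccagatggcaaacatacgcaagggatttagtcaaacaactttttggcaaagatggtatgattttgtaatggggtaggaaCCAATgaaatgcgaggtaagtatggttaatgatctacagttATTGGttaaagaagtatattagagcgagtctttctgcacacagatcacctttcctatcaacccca
Ambp: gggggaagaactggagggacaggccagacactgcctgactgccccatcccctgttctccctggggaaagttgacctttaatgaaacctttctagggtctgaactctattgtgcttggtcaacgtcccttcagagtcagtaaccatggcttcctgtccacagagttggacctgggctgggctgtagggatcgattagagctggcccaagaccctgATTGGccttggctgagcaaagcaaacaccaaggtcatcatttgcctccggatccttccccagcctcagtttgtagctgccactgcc
The CCAAT box was found in all 5 windows, with 2 matches in Alb and 1 in each of the others, against 37.4% of 32851 promoter windows of the same length. Relative to the gene start, the match of Ahsg began at 22, after the start, and that of Gc at -225, far before it. A TATA box (TATAAA, either strand) was found in Afp alone among the 5, against 13.6% of all windows. The pattern TTNNGNAA, which binding sites of C/EBP factors share, had 4 matches in Alb, 1 each in Afp, Gc and Ahsg, and none in Ambp, against 40.7% of windows with a match. Overlaps between these patterns were not removed, and a match is a run of letters that was not tested for binding.

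These windows held fewer CpG dinucleotides, the sites at which DNA is methylated, than the median window. Afp, Alb and Ambp held 3 each, Ahsg held 6 and Gc held 0. The median over all windows was 7, with an interquartile range of 3 to 20, outside which only Gc lay. Afp, which rose, and Alb, which read lower without passing, thus held the same number of CpG sites in their promoter windows. Methylation itself was not measured in these samples.

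Afp was much higher in both mutant pools, and Alb was lower in both. On its brightest probe set (1416645_a_at), Afp read 4128 in normal embryos, 14329 in mutant pool 1 and 14758 in mutant pool 2. Both mutant values lay far above the normal value and differed little from each other. On the log2(signal + 31.92) scale, used for every log2 ratio here, the ratio of mutant to normal was 1.79 and 1.83 on the 2 arrays. Limma, fitted to all 27022 probe sets that passed a filter on low signal, gave a log2 ratio of 1.81 (SE 0.14, 95% confidence interval 1.45 to 2.17) with a Benjamini-Hochberg adjusted p of 0.0184. Rises with an adjusted p below the threshold of 0.05 made up 0.548% of the probe sets tested.

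The other Afp probe sets were higher in both mutant pools too, by different amounts. Probe set 1416646_at read 1398 in the normal pool against 11841 and 18252, for a log2 ratio of 3.36 (SE 0.28, limma adjusted p = 0.0187). Probe set 1436879_x_at, whose suffix marks probes that may also bind other transcripts, read 1158 against 13907 and 13501, a log2 ratio of 3.53 (SE 0.16, limma adjusted p = 0.0111). These 3 bright probe sets read between 11841 and 18252 in the mutants, whereas their normal values spread from 1158 to 4128. The size of the Afp rise therefore depended on the probe set, from 3.47-fold to 13.1-fold on the linear scale in single mutant arrays. In the mutant pools their signals ranked at 99.2 to 99.8 percent of all probe sets. The highest signals of the arrays were 28155, 26320 and 24912, and saturation was not tested.

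A pair of dimmer Afp probe sets had the same direction and did not pass or could not be tested. Probe set 1436881_x_at read 109.6 in the normal pool against 289 and 481, for a log2 ratio of 1.52 (SE 0.38, limma adjusted p = 0.203). Probe set 1436880_at read 5.85 in the normal pool and 16.9 and 23.8 in mutant pools 1 and 2, all under the 20th percentile of signals that served as pseudocount, and the filter removed it. Counting all 5, mutant signals were above the normal signal on each probe set in both arrays.

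Alb, which codes for albumin, read 158.6 in normal embryos, 65.2 in mutant pool 1 and 97.4 in mutant pool 2. Both mutant values were below the normal one, with log2 ratios of -0.97 and -0.56, so the mutants differed from each other by 0.41 on that scale. The log2 ratio was -0.77 (SE 0.38, 95% confidence interval -1.71 to 0.18), and limma gave an adjusted p of 0.460, so the difference did not pass. The interval holds both no change and a fall of more than 2-fold. The normal signal was near the middle of its array (52.3 percent of probe sets read as low or lower), and the mutant signals ranked at 33.9 and 40.8 percent. Alb passed the filter on low signal through the normal array, since the mutant mean lay under the filter's bound, a signal of 90.4.

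**Figure D1:**
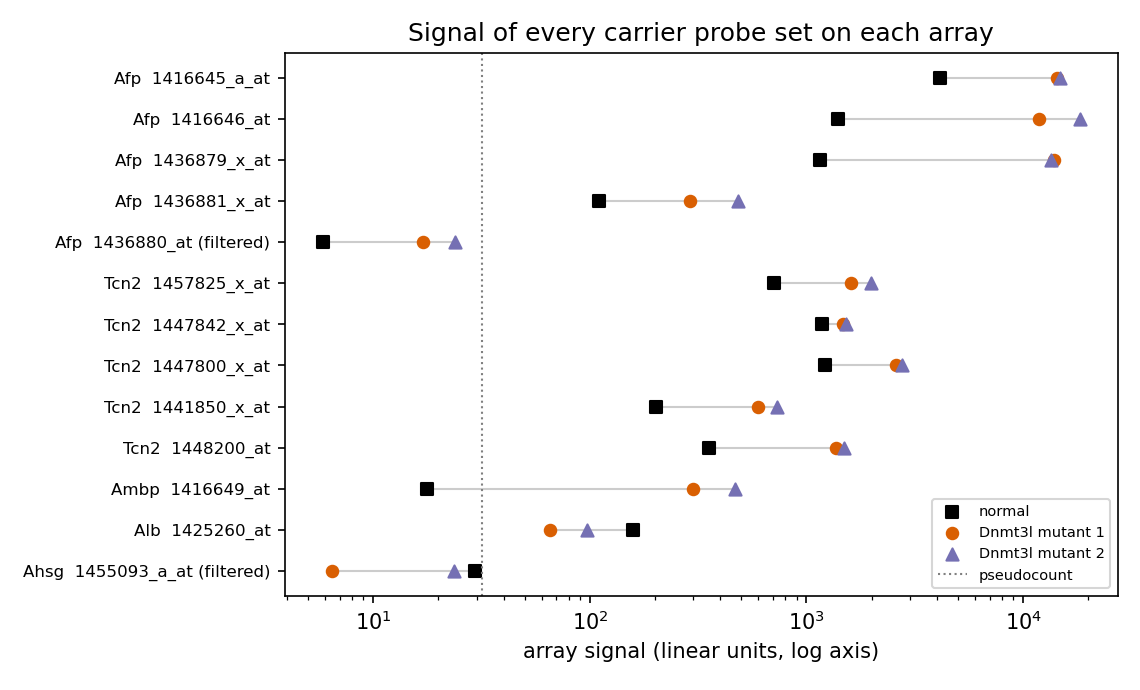
Array signal (log axis, linear units) of all 13 probe sets of Afp, Tcn2, Ambp, Alb and Ahsg, with 1 square for the normal array and 1 circle and 1 triangle for mutant arrays 1 and 2; the dotted line is the pseudocount of 31.92. The Afp, Tcn2 and Ambp probe sets read higher in both mutants, Alb and Ahsg lower in both.

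The change of Afp was set against that of Alb on each array, since levels of different probe sets cannot be compared. From the normal array, the log2 ratio of Afp exceeded that of Alb by 2.76 in mutant 1 and by 2.39 in mutant 2, a mean of 2.57 ± 0.26 (SD, n = 2). With the other Afp probe sets in place of the brightest, the mean difference was 4.13, 4.29 and 2.28 for the 3 that passed the filter and 1.23 for the 1 that did not. The difference had the same sign on both mutant arrays for all 5 probe sets. That sign follows from every Afp probe set reading higher and the same Alb probe set reading lower, so it adds no further support. An exact permutation test over the 3 arrays gave a two-sided p of 0.333, which is the smallest that 1 array against 2 allows. The contrast is therefore a description of these pools.

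Ambp, which codes for the common precursor of the lipocalin alpha-1-microglobulin and the protease inhibitor bikunin, read higher in both mutant pools. It read 17.7 in the normal pool against 301 and 467 in mutant pools 1 and 2. The normal value lay below the pseudocount, and both mutant values were far above it. The log2 ratio was 3.04 (SE 0.38, 95% confidence interval 2.09 to 3.98) with 2.74 in mutant 1 and 3.33 in mutant 2, and limma's adjusted p of 0.0522 fell just short of the threshold. Ambp passed the filter through its mutant signals only, so a difference was built into its being tested. Its size depends on the pseudocount, from 2.43 to 3.54 over the alternatives under which it was tested, and by limma it passed with a pseudocount of 15.96 (adjusted p = 0.0437), median centring (adjusted p = 0.0231) and cyclic loess (adjusted p = 0.0434), within a range of 0.0231 to 0.230.

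Tcn2 codes for transcobalamin, the plasma protein that carries vitamin B12 into cells. All 5 of its probe sets read higher in both mutant pools, and 1 of them passed. The brightest (1447800_x_at) read 1216 in the normal pool against 2581 and 2766, for a log2 ratio of 1.12 (SE 0.20, limma adjusted p = 0.108). Both mutant values were over 2-fold above the normal one and close to each other. Probe set 1448200_at, which unlike the other 4 lacks the suffix for probes that may bind other transcripts, read 354 against 1363 and 1493. Its log2 ratio was 1.92 (SE 0.23, limma adjusted p = 0.0490), and it passed under 5 of the 10 settings that gave it a p, the main one included. The other 3 had log2 ratios of 1.56, 1.29 and 0.34, with limma adjusted p of 0.107, 0.117 and 0.554. The smallest of these changes belonged to 1447842_x_at, which read 1178 in the normal pool and 1470 and 1521 in the mutants.

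Ahsg, which codes for the mineral-binding carrier fetuin-A, was near the bottom of the scale. Its signal was 29.4 in normal embryos, 6.43 in mutant pool 1 and 23.6 in mutant pool 2, all below the pseudocount. It was lower in both mutants, with a log2 ratio of -0.41, and was removed by the filter. At these signals a difference could not be measured.

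**Figure D2:**
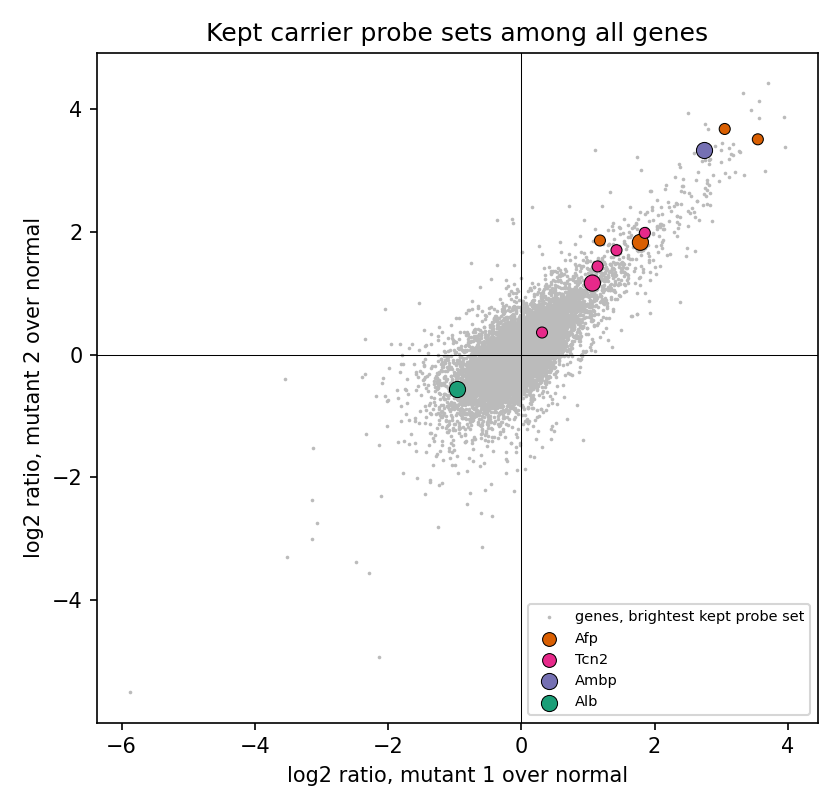
Log2 ratios of mutant 1 (horizontal) and mutant 2 (vertical) over the normal array for 12913 genes by their brightest kept probe set (grey) and for the 11 kept probe sets of Afp, Tcn2, Ambp and Alb (colours; large points are the brightest probe set of a gene). Ambp lies at 2.74 and 3.33, the brightest Afp probe set at 1.79 and 1.83, and Alb at -0.97 and -0.56.

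Over all 13 probe sets, 11 were higher in both mutant arrays and 2, those of Alb and Ahsg, were lower in both. These counts include Ahsg and 1436880_at of Afp, which lay below the pseudocount on every array, where a difference could not be measured. Among all probe sets before the filter, 32.6% were higher in both and 39.4% lower in both. A ratio of at least 2-fold in both mutants was found for 9 of the 13, Ambp with its normal signal below the pseudocount included, against 2.37% of all probe sets. Of the 11 kept, 4 passed limma as higher, 3 of Afp and 1 of Tcn2, against 0.548% of kept probe sets. None passed as lower, against 0.0296% of kept probe sets. At an unadjusted p under 0.05 none was lower either, against 1853 of the 27022 kept probe sets. Probe sets of 1 gene share their transcript, so the 13 stand for 5 genes. Mutant 2 read higher than mutant 1 on 12 of the 13 probe sets, the exception being 1436879_x_at of Afp. Over all 12913 genes, by their brightest kept probe set, 54.7% had a higher ratio in mutant 2. That share counts genes after the filter, whereas the 13 include filtered probe sets and several of the same gene.

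Genes next to the albumin pair on chromosome 5 did not show one direction. The 3 coding genes before Alb in the RefSeq gene table of GRCm38.p6 are Adamts3, Cox18 and Ankrd17, and the 3 after Afp are Afm, Albfm1 and Rassf6. Afm, which codes for afamin, the vitamin E-binding member of the albumin family, read 211 in normal embryos against 188 and 144.5 in the mutants. Its log2 ratio was -0.30 (SE 0.33, limma adjusted p = 0.741). Albfm1, a further family member, read 59.6, 46.1 and 44.8 and was removed by the filter. Of the family members in this cluster that were measured, Afp alone was higher in the mutants, and Alb, Afm and Albfm1 read lower in both without passing or without a test. Rassf6, a gene of the RAS-association domain family, read 91.3 against 248 and 250, a log2 ratio of 1.19 (SE 0.31, limma adjusted p = 0.211). Ankrd17 and Cox18 read 0.24 and 0.40, and Adamts3 differed in sign between the mutants.

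**Figure D3:**
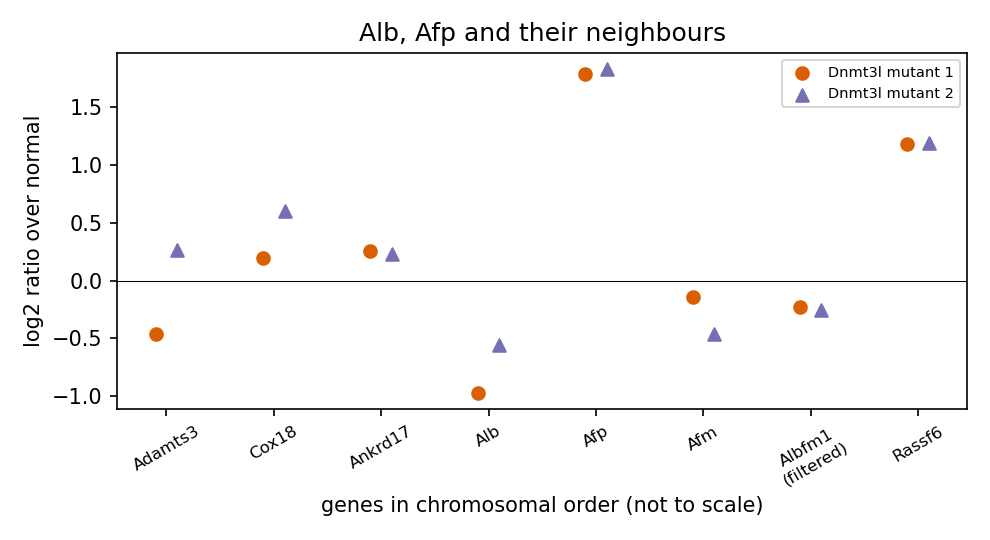
Log2 ratio over the normal array (vertical) in mutant 1 (circles) and mutant 2 (triangles) for Alb, Afp and the 3 coding genes on each side, in chromosomal order and not to scale. Afp stands at 1.79 and 1.83 and Rassf6 at 1.18 and 1.20, while Alb lies below 0 in both arrays.

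Other plasma carriers held a few strong rises among many genes of low signal. Of 18 listed and measured, 8 passed the filter, 3 rose and none fell in the limma test, against 0.728% and 0.031% of all 12913 genes. At an unadjusted p under 0.05, 0 were lower, against 4.24% of all genes. Apom, an apolipoprotein that carries sphingosine-1-phosphate, rose from 746 to 6708 and 5749, a log2 ratio of 3.00 (SE 0.20, limma adjusted p = 0.0124). Rbp4, the retinol carrier, read 2746 against 19018 and 16573 (log2 ratio 2.68), and Ttr, the carrier of thyroid hormone that binds Rbp4, read 5888 against 20443 and 18964 (log2 ratio 1.74). These 3 had their lower mutant value well above the normal value. Apoh, a phospholipid-binding plasma protein, read lower in both mutants (-0.79, SE 0.34, limma adjusted p = 0.394). The median over the 8 kept genes was -0.03, against -0.02 over all genes, and its sign turned under each of the 3 other scalings (0.04 by quantile, 0.05 by median centring and 0.05 by cyclic loess).

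Receptors that take up these carriers included some of the largest rises. Of 14 genes measured, 12 passed the filter and 3 rose by limma, against 0.728% of all genes. None fell, against 0.031%, with 1 lower at an unadjusted p under 0.05, which 4.24% of all genes reached. Cubn codes for cubilin, which binds albumin, transferrin and vitamin D-binding protein, and read 1238 in normal embryos against 10977 and 13129 in the mutants (log2 ratio 3.24, SE 0.18, limma adjusted p = 0.0111). Amn, its membrane anchor, had a log2 ratio of 3.23, and Dab2, an endocytic adaptor of the same receptor complex, had 2.08. Cubn and Amn are also among the yolk sac endoderm markers, so they are not separate from that list. Lrp2, which codes for the partner receptor megalin, read 643 against 1714 and 1884 and did not pass (1.44, SE 0.22, limma adjusted p = 0.0793). The list's median was 0.49.

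Receptors for single carriers, chosen after their values were seen, did not pass. Cd320, the receptor that takes up transcobalamin with vitamin B12, read 1230 in normal embryos against 745 and 733 in the mutants. Its log2 ratio was -0.71 (SE 0.23, limma adjusted p = 0.288), lower in both arrays, whereas all 5 probe sets of its ligand Tcn2 read higher. Tfrc, the transferrin receptor, read 5221 against 5555 and 5633, a log2 ratio of 0.10 (SE 0.16). Fcgrt, the receptor that recycles albumin, had 0.90 (SE 0.31, limma adjusted p = 0.307) while Alb read -0.77.

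Transcription factors of endoderm and liver mostly read higher by small amounts. Of 15 genes measured, 12 passed the filter, 8 were higher in both mutants against 36.5% of all genes, and none was lower in both against 39.1%. None passed limma as lower, against 0.031% of all genes. Only Hnf4a, a nuclear receptor of visceral endoderm and hepatocytes, passed as higher, against 0.728%. It read 319 in normal embryos against 1690 and 1844 in the mutants (log2 ratio 2.36, SE 0.23, limma adjusted p = 0.0296), and it is also a yolk sac endoderm marker. Cebpb (1.59), Foxa3 (0.71) and Hhex (0.38) were higher in both without passing. Zhx2 and Zbtb20, known in mouse liver as repressors of Afp after birth and chosen here after their values were seen, read -0.02 (SE 0.30) and -0.04 (SE 0.35) and differed in sign between the mutants. The list's median was 0.34, and it was between 0.34 and 0.41 under the 3 other scalings.

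Hepatocyte enzymes differed in direction among themselves. Of 10 genes measured, 7 passed the filter, and none rose or fell by limma, against 0.728% and 0.031% of all genes. At an unadjusted p under 0.05, 1 was higher and 0 lower, against 8.01% and 4.24% of all genes. Tdo2, a tryptophan-degrading enzyme, read 219 against 603 and 490 (log2 ratio 1.20, SE 0.28, adjusted p = 0.188). Arg1, the arginase of the urea cycle, read 2024 against 590 and 1348 (-1.15, SE 0.48, adjusted p = 0.380). Cyp2e1, a cytochrome of hepatocytes, had -0.74, with both mutants below the normal array as for Alb, and Fah, an enzyme of tyrosine breakdown, had 0.90. Tat, Pck1 and G6pc were removed by the filter, with signals between 33.9 and 84.2. The median of the 7 kept genes was -0.10.

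**Figure D4:**
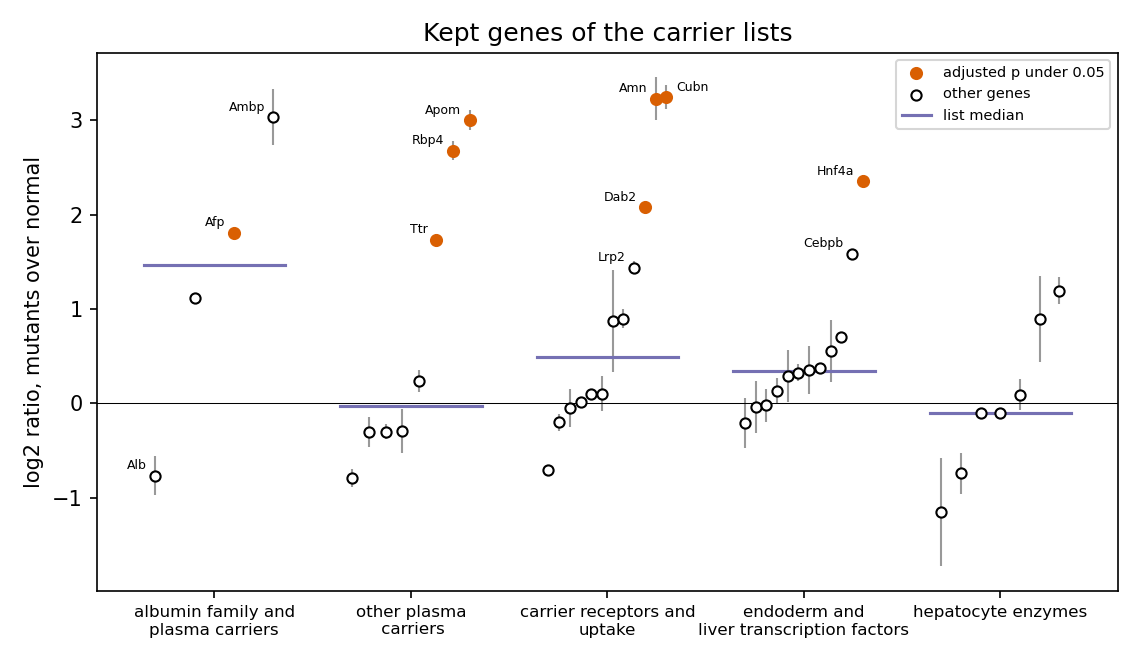
Log2 ratio of mutants over normal (vertical) for the kept genes of the albumin family and plasma carriers and of 4 further lists, with a point per gene, a grey line joining the 2 mutant arrays, and a purple bar for the list's median; filled points passed limma at an adjusted p under 0.05. The filled points all lie above 0, and none is in the list of hepatocyte enzymes.

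The 5 kept genes closest to Afp and to Alb in the pair of mutant log2 ratios were found by Euclidean distance over 3 arrays, each gene by its brightest kept probe set. For Afp they were Gnpda1, an enzyme of glucosamine metabolism, at a distance of 0.034, Sigirr, an inhibitor of interleukin receptor signalling (0.047), Sec14l2, a lipid-binding protein (0.066), the lysosomal transporter gene Slc66a1 (0.070) and Dhrs11, a dehydrogenase (0.073). Gnpda1 read 597 in normal embryos against 2177 and 2169 in the mutants, and it alone of the 5 passed limma (adjusted p = 0.0436). For Alb they were Mgst1, a glutathione transferase (0.021), the matrix metalloproteinase gene Mmp2 (0.022), H2-T18 (0.031), Dbndd1 (0.033) and the secreted matrix protein gene Spon1 (0.034). Mmp2 read 2762 in normal embryos against 1372 and 1869 in the mutants, and none of these 5 passed. With 3 arrays a near match is common, and it says only that the ratios were alike. The Afp list holds for 1416645_a_at alone, since probe sets 1416646_at and 1436879_x_at had larger log2 ratios of 3.36 and 3.53.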

How the data were processed

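Single-channel Affymetrix arrays measured RNA from 3 pools. Per the labels' protocols, Trizol was used for extraction and biotin as the label. The deposited intensity values are linear, and GCOS and MAS5 are listed, with no version, by the submitters' processing notes. From the values, each array had a mean of 500.0 after trimming 2% at each end. The genome build is not given in the sources used here. The depth of an array has no count, and the number of arrays limits the precision.

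After 64 control probe sets were left out, log2(signal + 31.92) was taken, the pseudocount being the median of the arrays' 20th percentiles. Probe sets whose average of both group means lay at or above the 40th percentile were kept (27022). Limma 3.58.1 in R 4.3.3 (lmFit, eBayes with a trend, two-sided, Benjamini-Hochberg over kept probe sets, threshold 0.05) had 1 residual degree of freedom, which the mutant pools supply, and 4.52 prior ones. The normal pool's spread is taken from the mutants. The p-values rest on the spread between the mutant pools, moderated toward a trend over all kept probe sets, and on no other pools. The brightest kept probe set stood for a gene.

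Genes were named from the platform annotation, in which 34945 probe sets had 1 symbol, 932 several and 9160 were not listed. The genes and lists were chosen with earlier results of these data known. Named from each list were the genes that passed and, up to 4 genes, the next by the smaller log2 ratio of the mutants. Alternatives were other pseudocounts, filters, scalings and variance fits, the mean of a gene's probe sets, and either mutant array alone.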

Additional observations from a re-analysis of the deposited data

How the results depend on the processing

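The number of probe sets higher and lower in the mutants, 148 and 8, became 0 and 0 without the filter on low signal (limma, with 2423 and 2451 at an unadjusted p under 0.05) and 0 and 0 when eBayes was run without a trend (1641 and 1814). The calls of Afp and Tcn2 were lost under each of these 2 settings. Median centring gave 263 and 24. The call of 1448200_at of Tcn2 was also lost with double the pseudocount (adjusted p = 0.0513), quantile normalization (0.0548) and cyclic loess (0.0512), within a range of 0.0252 to 0.155. Afp passed under the other 8 alternatives, with log2 ratios of 1.80 to 2.14 and adjusted p of 0.0162 to 0.152 over all 10. Alb stayed below 0 and did not pass under the 9 alternatives that gave it a p (-0.98 to -0.62), and the stricter filter removed it. The brightest Tcn2 probe set did not pass under any of 10 (1.08 to 1.25). The difference of Afp and Alb was 2.43 to 2.80 under the other pseudocounts, quantile normalization and cyclic loess (the filter, the trend and median centring cannot move it) and 2.90 with the mean of a gene's probe sets, and either mutant array alone gave 2.39 to 2.76. No paired analysis was possible because the normal group has 1 array and its label carries no replicate number. Signals near the pseudocount limit Ambp, Ahsg and Alb.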

Other observations

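Of the 18 other plasma carriers, 10 were removed by the filter on low signal. Itih3, a chain of the inter-alpha-trypsin inhibitor family to which bikunin, a product of Ambp, is joined, read 7.85 in normal embryos, 32.0 in mutant pool 1 and 62.9 in mutant pool 2. Orm2, an acute-phase carrier of basic drugs, read 3.30, 14.7 and 44.6. Both were higher in both mutants at signals close to or below the pseudocount of 31.92 on most arrays, so no size was given. Hp, the hemoglobin carrier haptoglobin, read 4.77, 5.24 and 7.16, and Itih1 read 38.0, 31.4 and 34.4. Hpx, the heme carrier hemopexin, passed the filter and read 146.6 on the normal array against 138.9 and 92.2, a log2 ratio of -0.29 (SE 0.37, limma adjusted p = 0.782). These genes were chosen after their values were seen.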
